A study of Mus musculus with 4 samples.

Results

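The genes described here encode the collagens, laminins and nidogens, the main structural proteins of interstitial matrix and basement membranes. They were taken from the deposited expression table of mouse testis by symbol alone: every collagen chain (Col, a number, a and a number), every laminin chain (Lama, Lamb or Lamc with a number) and both nidogens (Nid1 and Nid2). This gave 57 of the 24420 symbols in the table, made up of 44 collagen, 11 laminin and 2 nidogen genes. The rule uses no measured value. Of the 57 genes, 53 were abundant enough to be tested: 40 collagens, all 11 laminins and both nidogens.

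The libraries are polyadenylated RNA of freshly isolated testis of FVB mice, 2 labelled as mutant for Lrrc8a (MUT 1 and MUT 2) and 2 as wild type (WT 1 and WT 2). The product of Lrrc8a is an essential part of the anion channel that opens when cells swell, and the study asked which testis genes differ in expression between these genotypes. No source used here gives the kind of mutation, the age of the mice or the number of animals behind each genotype, so a p-value measures spread among libraries that may be technical only. The labels name germ cells as the cell type but testis as the source and no step that separates cells, and markers of other testis cells were present in every library (values are given with the cell type markers), so the samples are treated as whole tissue.

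Collagen chains assemble in threes into triple helices. Fibrillar collagens then pack into the fibrils of interstitial tissue, fibril-associated collagens decorate these fibrils, and collagen IV forms the sheet-like network of basement membranes. Laminins are heterotrimers of an alpha, a beta and a gamma chain that polymerise on the cell surface, and nidogens link them to collagen IV. In the testis, the seminiferous tubule is wrapped by a basement membrane on which Sertoli cells and spermatogonia rest. Outside it lie peritubular myoid cells and fibrillar collagen.

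The levels of the collagen genes in the MUT libraries lay mostly a little below those in the WT libraries, while laminins, nidogens and collagen IV lay on both sides. After a correction for GC content and length, all 6 collagen IV genes lay below 0 (median -0.04). Of the 53 tested genes, 2 collagens fell in the mutant (Col27a1 and Col16a1) and 0 rose at an adjusted p under 0.05 in limma, beside 0.267% of all 15364 tested genes that fell and 0.482% that rose (0.749% called in all, 115 genes). The count tests edgeR and DESeq2 also called these 2 members and 0 that rose. At an unadjusted p under 0.05 in limma, 17 members were lower and 3 higher, against 6.98% of all tested genes lower and 7.74% higher. The fitted difference was below 0 for 33 of the 40 collagens, with a median log2 difference of -0.19, against -0.002 over all tested genes. It was below 0 for 5 of the 11 laminins, with a median of 0.05 (-0.029 without MUT 1). Log2 differences are MUT minus WT on the scale of log2(CPM + 0.5), where CPM is the read count as scaled in the deposited data. They understate differences of weakly expressed genes.

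**Figure D1:**
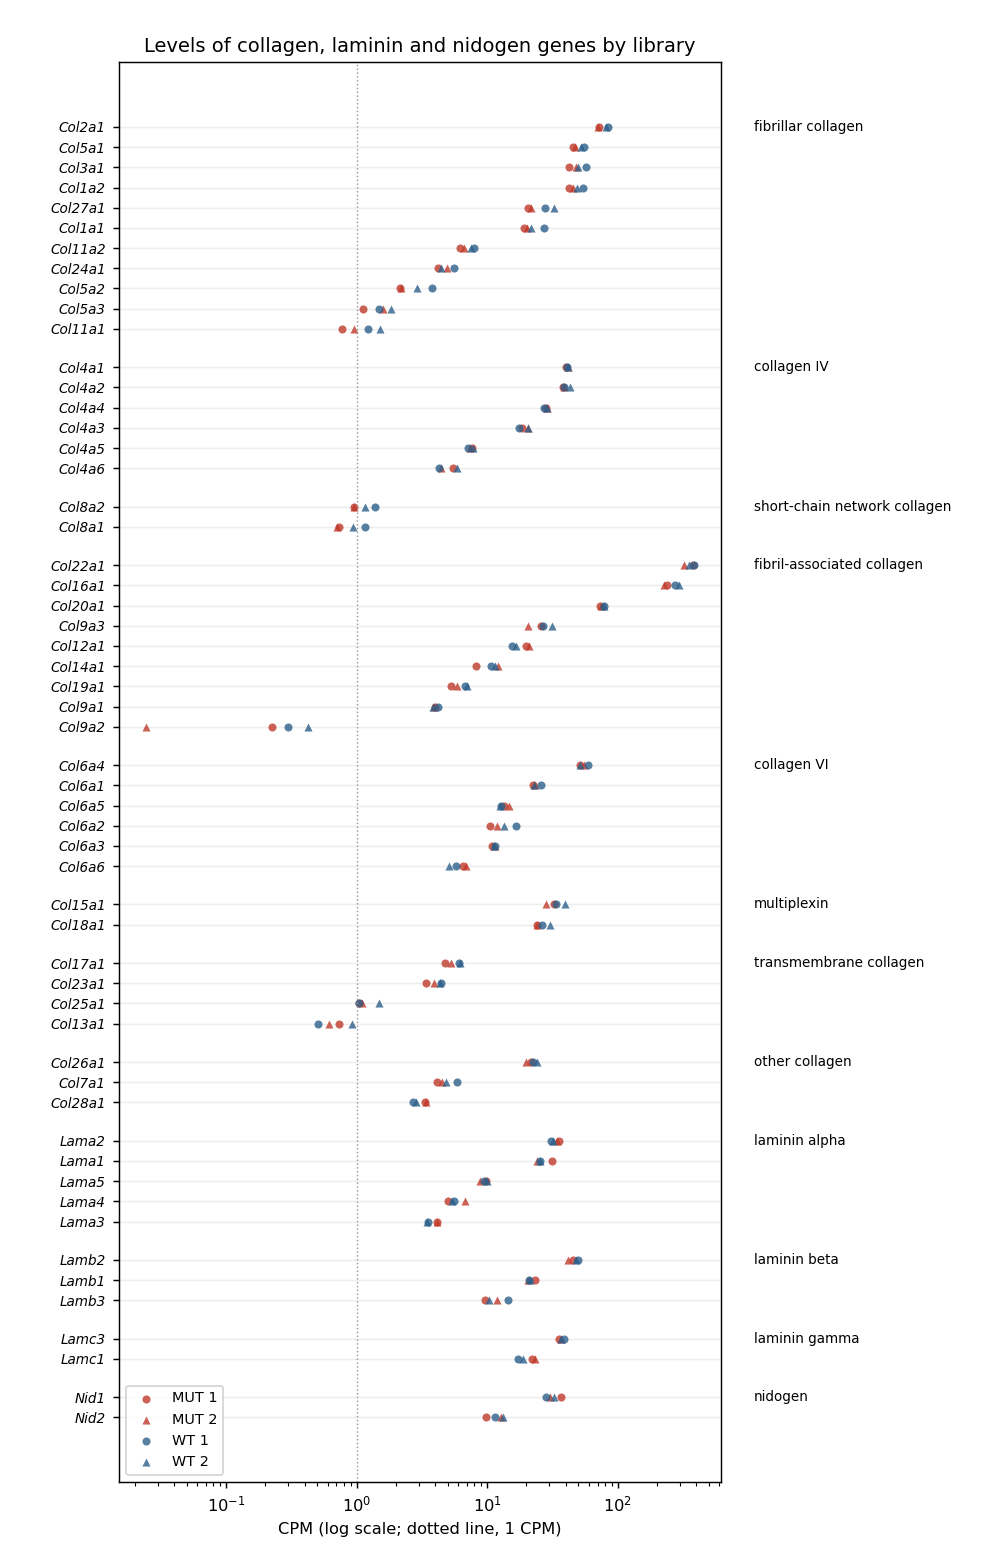
CPM of 55 of the 57 genes on a log axis, with 1 point per library (red, MUT; blue, WT; circles, replicate 1; triangles, replicate 2) and genes grouped by structural class. Col10a1 is at 0 in all libraries and has no row. The red points lie left of the blue ones for 9 of the 11 fibrillar collagens.

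Stretches upstream of a RefSeq start of 5 of these genes are shown because they are the genes the comparison turns on: both genes that fell (Col27a1, a minor fibrillar collagen, and Col16a1, a fibril-associated collagen), 2 fibrillar collagens whose genotypes did not overlap without passing the test (Col3a1 and Col5a1), and a laminin whose genotypes overlapped (Lamb1). They are RefSeq sequences on GRCm38.p6, read 5′ to 3′ on the plus strand, which is the strand of all 5 genes. The stretches are chr4:63215162-63215411 for Col27a1, chr4:130047590-130047839 for Col16a1, chr1:45311288-45311537 for Col3a1, chr2:27886175-27886424 for Col5a1 and chr12:31265043-31265233 for Lamb1. Each is 250 bases long except that of Lamb1, which was trimmed to 191 bases to end before the annotated first exon. The RefSeq start of Col27a1 lies inside the gene as GENCODE places it, so its stretch is downstream of the first annotated base, while the other 4 end at the base before it. Capitals mark a GC box (GGGCGG, or CCGCCC on the other strand), a CCAAT box (CCAAT, or ATTGG) or a TATA box (TATAAA, or TTTATA).
Col27a1: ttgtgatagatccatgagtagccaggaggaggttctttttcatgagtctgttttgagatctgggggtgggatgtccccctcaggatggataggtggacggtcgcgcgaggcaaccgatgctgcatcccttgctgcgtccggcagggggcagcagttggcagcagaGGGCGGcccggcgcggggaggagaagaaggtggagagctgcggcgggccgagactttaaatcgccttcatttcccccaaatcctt
Col16a1: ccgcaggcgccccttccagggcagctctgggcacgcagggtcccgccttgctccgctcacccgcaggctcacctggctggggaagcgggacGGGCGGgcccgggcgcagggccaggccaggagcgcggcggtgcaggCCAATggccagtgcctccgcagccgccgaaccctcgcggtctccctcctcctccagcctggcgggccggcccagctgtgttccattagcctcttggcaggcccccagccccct
Col3a1: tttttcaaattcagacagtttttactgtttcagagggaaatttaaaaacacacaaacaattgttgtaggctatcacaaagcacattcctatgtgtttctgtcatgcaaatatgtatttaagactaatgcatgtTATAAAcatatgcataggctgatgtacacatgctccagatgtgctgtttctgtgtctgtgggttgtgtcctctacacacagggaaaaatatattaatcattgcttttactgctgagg
Col5a1: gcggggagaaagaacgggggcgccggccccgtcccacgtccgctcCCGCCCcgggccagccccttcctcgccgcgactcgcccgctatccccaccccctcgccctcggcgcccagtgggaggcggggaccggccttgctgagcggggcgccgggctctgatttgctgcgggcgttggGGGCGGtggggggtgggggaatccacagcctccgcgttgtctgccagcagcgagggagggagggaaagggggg
Lamb1: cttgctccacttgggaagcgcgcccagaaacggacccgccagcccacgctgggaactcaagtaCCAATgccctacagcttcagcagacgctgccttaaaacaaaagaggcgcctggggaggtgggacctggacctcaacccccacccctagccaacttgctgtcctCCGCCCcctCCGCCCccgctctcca

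The stretches of Col16a1 and Col5a1 are 75.6% and 76.4% G or C, and that of Col3a1 is 35.2%. Col27a1 and Col16a1 each hold 1 GC box, Col5a1 and Lamb1 hold 2, and Col3a1 holds a TATA box and no GC box. RefSeq start windows were at hand for 41 of the 57 genes, in 45 windows. A GC box was present in 25 of these 45 windows (55.6%) and in 32.7% of the 32851 windows of all genes, all of the same length. A CCAAT box was in 33.3% of the members' windows and 33.8% of all windows, and a TATA box in 11.1% and 12.4%. The median G or C content was 59.6% over the first window of each of the 41 genes. It was 52.4% over all 32851 windows, where a gene can have more than 1. A match is a description of the letters, not of a bound site.

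Col27a1 (chromosome 4, 63214004 to 63334991 on GRCm38, plus strand) encodes a fibrillar collagen known from cartilage. Its level was 20.5 CPM in MUT 1 and 21.6 CPM in MUT 2, and 27.7 CPM in WT 1 and 32.6 CPM in WT 2. Both MUT libraries lay below both WT libraries, and the WT libraries were further apart than the MUT libraries. The mean was 21.1 ± 0.744 CPM in MUT and 30.2 ± 3.47 CPM in WT (SD, n = 2 libraries each), a log2 difference of -0.50 (SE 0.0922, limma adjusted p = 0.0117). The call was made in 14 of 17 alternative analyses. It was lost without WT 2 (log2 difference -0.39, limma adjusted p = 0.0731) and, at an unchanged log2 difference, with no filter on low values or no variance trend (limma adjusted p = 0.145 and 0.189). In every fit that leaves out 1 library, the genotype left with a single library is assumed to vary like the other genotype, whose pair alone supplies the gene's own spread.

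Col16a1 (chromosome 4, 130047840 to 130099283, plus strand) encodes a fibril-associated collagen and had the highest level per transcript length of all 57 genes in WT. It was measured at 238 CPM in MUT 1 and 224 CPM in MUT 2, and at 275 CPM in WT 1 and 295 CPM in WT 2. The genotypes did not overlap, and the gap between them was wider than the distance between the libraries of either genotype. The mean was 231 ± 9.95 CPM in MUT and 285 ± 14.3 CPM in WT (SD, n = 2 each), a log2 difference of -0.30 (SE 0.0644, limma adjusted p = 0.0332). The library with the fewest Col16a1 reads held 9179 of them. The call was made in 10 of 17 alternative analyses. It was lost without MUT 2 (log2 difference -0.26), without WT 2 (-0.25) and after a correction for GC content and length (-0.22, limma adjusted p = 0.106). Quantile normalization, a replicate block, no filter on low values and no variance trend also lost it (limma adjusted p = 0.0723, 0.0612, 0.223 and 0.268). Over all 17, which include edgeR and DESeq2, its adjusted p ran from 0.00521 (DESeq2) to 0.268 (limma with no variance trend).

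All 11 fibrillar collagens, the chains that build interstitial fibrils, had a fitted difference below 0, from -0.51 to -0.12 with a median of -0.24. In 9 of the 11 both MUT libraries lay below both WT libraries, and in none did both lie above. Over all tested genes these shares were 22.6% below and 23% above. Only Col27a1 passed the test. All 11 stayed below 0 in 15 of the 17 alternatives: without WT 1 it was 10 of 11, and with a minimum mean of 2 CPM the 9 that were tested. In bulk tissue, fewer cells of a type and less RNA per cell cannot be told apart, so a lower CPM does not say which of these differed.

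Collagen I, the most abundant collagen of most connective tissue, is built of the chains of Col1a1 and Col1a2. Col1a2 was at 42.1 and 45.7 CPM in MUT and 53.8 and 48.6 CPM in WT, a log2 difference of -0.22 (SE 0.0801, limma adjusted p = 0.205). Col1a1 was at 19.1 and 20.4 CPM in MUT and 27.0 and 21.8 CPM in WT, a log2 difference of -0.29 (SE 0.1, limma adjusted p = 0.175). WT 1 was the highest library for both, and MUT 1 the lowest. Without WT 2 Col1a1 passed the test (limma adjusted p = 0.0435). Col3a1, the single chain of collagen III, was at 42.1 and 48.2 CPM in MUT and 57.1 and 49.9 CPM in WT, with the order of the libraries as in collagen I (log2 difference -0.24, SE 0.0862, limma adjusted p = 0.19). The groups of these 3 genes did not overlap, but MUT 2 and WT 2 were close in each.

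Collagen V starts and limits the growth of collagen I fibrils. Its chain gene Col5a1 was at 45.3 and 47.1 CPM in MUT and 55.4 and 52.3 CPM in WT (log2 difference -0.22, SE 0.0751, limma adjusted p = 0.178). Col5a2 was at 2.15 and 2.20 CPM in MUT and 3.75 and 2.92 CPM in WT (log2 difference -0.51, SE 0.152, limma adjusted p = 0.12). The log2 difference of Col5a2 was the lowest of all 53 members on the log2(CPM + 0.5) scale. Its standard error was larger than that of Col27a1, which had a like log2 difference. By the ratio of mean CPM, MUT over WT, the weakly expressed Col11a1 was lower (0.632, against 0.653 for Col5a2). Col5a1 lies on chromosome 2 at a distance of 2.2 Mb from Lrrc8a. Col2a1, known as the collagen of cartilage, was at 72.0 and 70.1 CPM in MUT and 84.4 and 81.4 CPM in WT. Within each genotype its libraries were within 3 CPM of each other, yet its log2 difference of -0.22 (SE 0.0696) did not pass the test (limma adjusted p = 0.143).

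The fibril-associated collagens, which sit on fibril surfaces and at tissue borders, had 7 of 8 tested members below 0, with 1 called (Col16a1) and a median of -0.12. In 4 of the 8 the MUT libraries lay below the WT libraries without overlap and in 1 above. Of all tested genes, 22.6% lay below and 23% above in this way, and 0.267% were called lower. Col22a1, known from muscle and tendon junctions, was at 376 and 322 CPM in MUT and 383 and 349 CPM in WT. Replicate 1 was above replicate 2 in both genotypes, and the genotypes overlapped (log2 difference -0.07, 95% limma interval without adjustment -0.22 to 0.08). Col20a1 was at 72.6 and 74.2 CPM in MUT and 78.9 in both WT libraries (log2 difference -0.10, limma adjusted p = 0.516). Col9a3, a chain of the cartilage collagen IX, was at 25.7 and 20.6 CPM in MUT and 26.7 and 31.6 CPM in WT (log2 difference -0.33, SE 0.105, limma adjusted p = 0.151). MUT 1 was close to WT 1. Col9a3 passed the test without MUT 1 (limma adjusted p = 0.0117) and without WT 1 (0.0459), fits in which its spread is that of the other genotype's pair alone. It overlaps Tcfl5 on the opposite strand, which was at 325, 341, 334 and 371 CPM across MUT 1, MUT 2, WT 1 and WT 2. Whether the counting used strand is not given, so reads of these 2 genes may not be separate.

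Col12a1, a fibril-associated collagen of tendon, skin and other load-bearing tissue, was the exception in its class. It was at 19.7 and 21.0 CPM in MUT and 15.6 and 16.5 CPM in WT, with both MUT libraries above both WT libraries. Its log2 difference of 0.33 (SE 0.0915) had the highest value of the 53 members and did not pass the test (limma adjusted p = 0.0929, and 0.0668 to 0.292 over the 17 alternatives, edgeR and DESeq2 included).

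**Figure D2:**
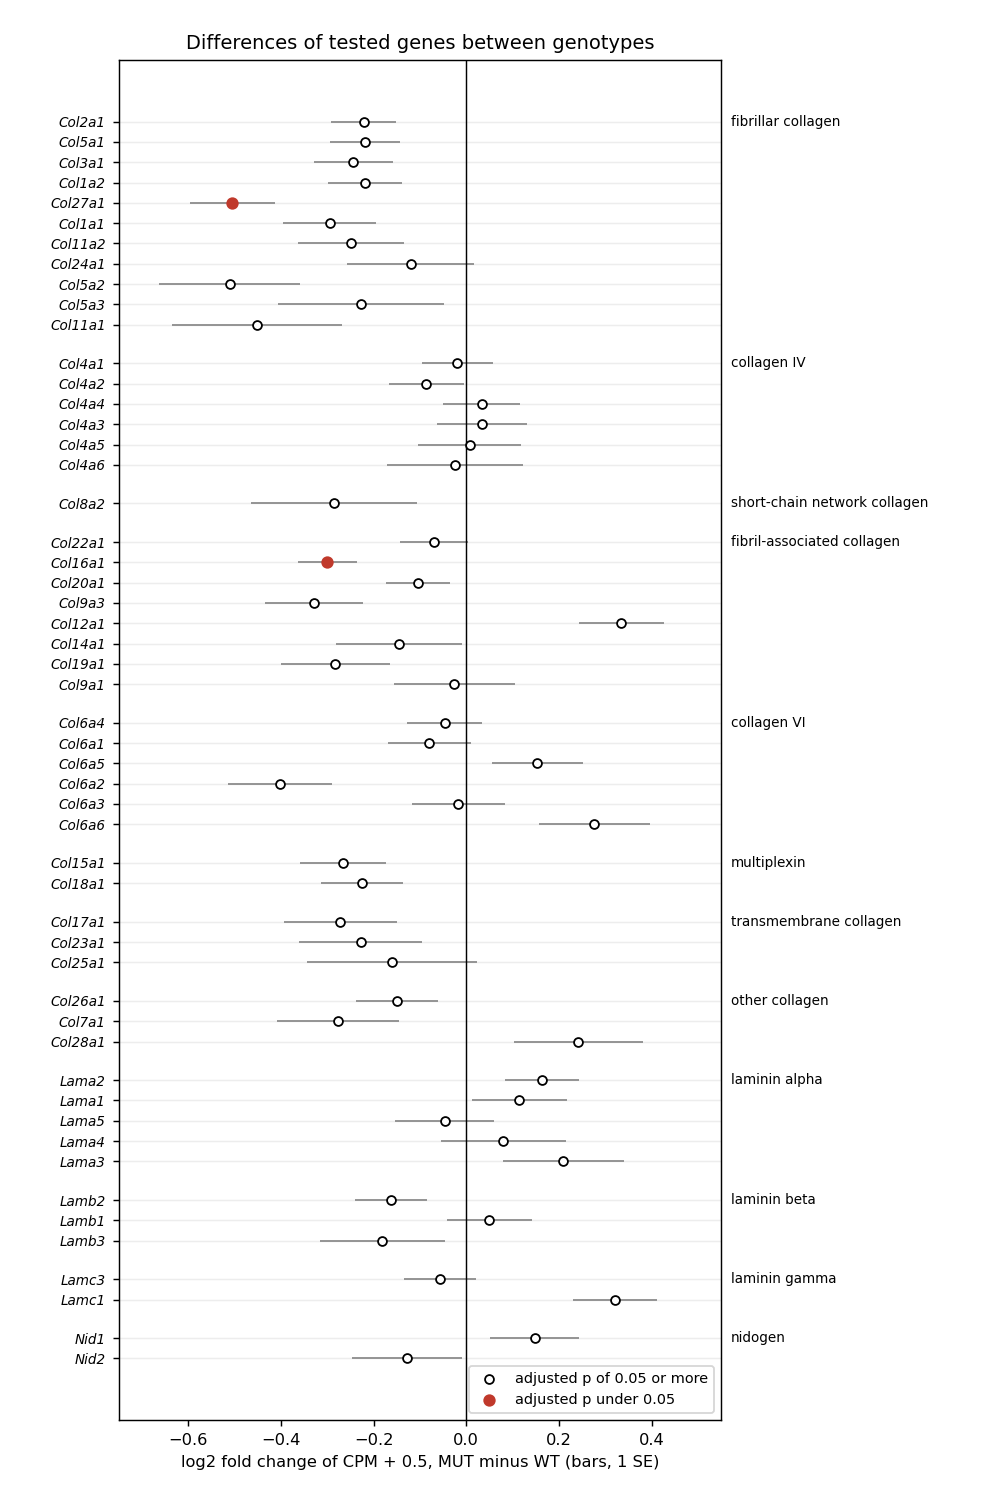
Log2 difference (MUT minus WT) of 52 of the 53 tested genes with bars of 1 standard error, by class. The filled points are Col27a1 and Col16a1, the genes that passed the test. All fibrillar collagens lie left of 0, collagen IV genes lie around 0, and Col12a1 (0.33) and Lamc1 (0.32) lie furthest to the right.

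Collagen IV, the network collagen of basement membranes, had fitted differences from -0.09 to 0.03 with a median of -0.006, and all 6 genes had overlapping genotypes. None had a limma p under 0.05 before adjustment. The chains of Col4a1 and Col4a2 form its ubiquitous form. Col4a1 was at 40.1 and 41.6 CPM in MUT and 41.2 and 41.6 CPM in WT (log2 difference -0.02, 95% interval -0.18 to 0.14). Col4a2 was at 37.9 and 39.1 CPM in MUT and 38.9 and 42.9 CPM in WT (log2 difference -0.09, 95% interval -0.25 to 0.08). For these 2 genes the libraries of both genotypes mixed within 6 CPM. Col4a4, a chain of the form found in the kidney filter and a few other membranes, was at 28.2 and 28.9 CPM in MUT and 27.0 and 28.8 CPM in WT (log2 difference 0.03, 95% interval -0.14 to 0.21). The sign of the class median was not stable: it was 0.016 with scaling to the total without the 100 most abundant genes and 0.073 without WT 2. Summed over the 6 genes, the level was 138 and 142 CPM in MUT and 136 and 148 CPM in WT, while the 11 fibrillar genes summed to 256 and 269 CPM in MUT and 325 and 305 CPM in WT. The difference between these classes was not tested.

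Collagen VI forms beaded microfibrils between cells and the fibrillar matrix, and its 6 genes lay on both sides of 0 with a median of -0.03. Col6a2 was at 10.54 and 11.95 CPM in MUT and 16.7 and 13.4 CPM in WT, without overlap (log2 difference -0.40, SE 0.112, limma adjusted p = 0.0994). WT 1 stood above the other libraries. Col6a2 passed the test without MUT 2 (limma adjusted p = 0.0281) and without WT 2 (0.0349), again with the spread of a single pair. Col6a1, whose product joins the same trimer, was at 22.5 and 23.2 CPM in MUT and 25.6 and 22.7 CPM in WT, so its genotypes overlapped (log2 difference -0.08, limma adjusted p = 0.725). The related chain genes Col6a4 (51.4, 55.2, 58.9 and 51.4 CPM across MUT 1, MUT 2, WT 1 and WT 2) and Col6a5 (13.5, 14.7, 12.8 and 12.5 CPM) had log2 differences of -0.05 and 0.15, and only Col6a5 had no overlap.

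Both multiplexins, collagens of the basement membrane zone that also carry the endostatin-type fragment, lay lower in MUT without overlap. So did 22.6% of all tested genes. Col15a1 was at 32.4 and 28.5 CPM in MUT and 33.8 and 39.8 CPM in WT (log2 difference -0.27, SE 0.0925, limma adjusted p = 0.182), and it passed the test without WT 1 (limma adjusted p = 0.0467). Col18a1 was at 23.9 and 24.2 CPM in MUT and 26.3 and 30.2 CPM in WT (log2 difference -0.22, limma adjusted p = 0.24). WT 2 was the highest library for both genes.

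The 3 tested transmembrane collagens also lay below 0, with values of -0.27 for Col17a1 (a hemidesmosome component), -0.23 for Col23a1 and -0.16 for Col25a1, at 1 to 7 CPM. The limma adjusted p was 0.302, 0.442 and 0.735. Of the others, Col26a1 was at 21.71, 19.96, 22.44 and 23.89 CPM across MUT 1, MUT 2, WT 1 and WT 2 (log2 difference -0.15), Col7a1, which forms the anchoring fibrils of skin, had a log2 difference of -0.28, and Col28a1 one of 0.24. None of these 3 passed the test (limma adjusted p from 0.34 to 0.456). Col8a2, a short-chain network collagen, was near the filter at 0.964, 0.953, 1.39 and 1.17 CPM (log2 difference -0.28, limma adjusted p = 0.482).

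The 4 genes not tested were collagens under the minimum of 1 CPM in 2 libraries. Col8a1 was at 0.738, 0.709, 1.16 and 0.945 CPM across MUT 1, MUT 2, WT 1 and WT 2, and Col13a1 at 0.738, 0.611, 0.504 and 0.925 CPM. Col9a2 was at 0.226, 0.0244, 0.297 and 0.422 CPM, where the value in MUT 2 is a single read. Col10a1, a collagen of hypertrophic cartilage, is listed at 0 in all libraries, which allows up to 0.0615, 0.0733, 0.0445 and 0.0603 CPM (3 reads of each library, counting error only). This bound holds only for reads that the counting could assign to it. Nt5dc1 overlaps Col10a1 on the opposite strand and was at 26.4, 25.4, 23.1 and 25.6 CPM, and whether the counting used strand is not given.

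The laminin alpha chains carry most of the sites that bind cell surface receptors, and 4 of 5 lay above 0, with a median of 0.11. Over all 11 laminins 0 were called in limma, edgeR and DESeq2, and 1 (Lamc1) had an unadjusted p under 0.05. Lama2 was at 35.7 and 34.4 CPM in MUT and 30.6 and 31.9 CPM in WT, without overlap (log2 difference 0.16, SE 0.08, limma adjusted p = 0.354). Lama1 was at 31.3 CPM in MUT 1 and between 23.97 and 25.29 CPM in the other 3 libraries. Its log2 difference was 0.11 with MUT 1 and -0.07 without it. Lama5 was at 9.82, 8.87, 9.42 and 9.89 CPM (log2 difference -0.05). Lama3, at 4.10 and 4.13 CPM in MUT and 3.55 and 3.44 CPM in WT, had no overlap either (log2 difference 0.21, limma adjusted p = 0.481).

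Lamc1, the gamma chain shared by most laminin trimers, was at 22.1 and 23.1 CPM in MUT and 17.1 and 18.9 CPM in WT. Both MUT libraries lay above both WT libraries, with a log2 difference of 0.32 (SE 0.0908, limma adjusted p = 0.102, and 0.0749 to 0.284 over the 17 alternatives, edgeR and DESeq2 included). The beta chains that pair with it did not share this: Lamb1 was at 23.2, 20.4, 20.8 and 21.2 CPM with overlap (log2 difference 0.05), and Lamb2 at 45.4 and 41.5 CPM in MUT and 49.6 and 47.7 CPM in WT without overlap (log2 difference -0.16, limma adjusted p = 0.342). Lamb3, a chain of epithelial laminin, overlapped, with levels between 9.64 and 14.5 CPM. Lamc3 was at 35.6, 37.0, 38.5 and 37.0 CPM (log2 difference -0.06), and its genotypes were separate by less than 0.01 CPM. It lies 1.62 Mb from Lrrc8a on chromosome 2.

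The nidogens, which bridge laminin and collagen IV, overlapped between genotypes. Nid1 was at 36.6 and 30.5 CPM in MUT and 28.1 and 32.3 CPM in WT (log2 difference 0.15, limma adjusted p = 0.5), and Nid2 at 9.88 and 12.7 CPM in MUT and 11.4 and 13.2 CPM in WT (log2 difference -0.13, limma adjusted p = 0.657). MUT 1 was the highest library for Nid1 and the lowest for Nid2.

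Over the 53 tested members, 23 had both MUT libraries below both WT libraries, 7 had both above and 23 overlapped, against 22.6% below and 23% above among all tested genes. Collagens made up 21 of the 23 lower genes and 4 of the 7 higher ones. The 7 higher genes were Col12a1, Col6a6, Col6a5, Col28a1, Lamc1, Lama2 and Lama3. Among collagens other than collagen IV, 30 of 34 had a fitted difference below 0, with a median of -0.22. Among the 19 genes of collagen IV, laminins and nidogens together, 9 lay below and 10 above 0, with a median of 0.007. The members took 0.164% and 0.159% of all reads of the MUT libraries and 0.174% and 0.172% of those of the WT libraries.

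**Figure D3:**
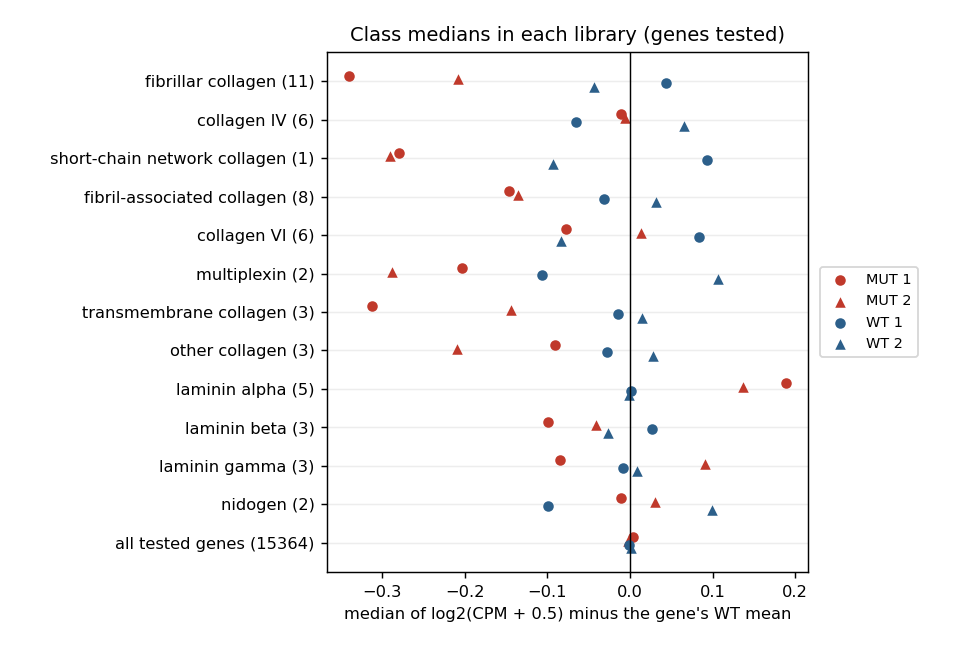
Median over the tested genes of each class (number in brackets) of the log2 level in a library minus the gene's WT mean, with 1 point per library. For fibrillar collagens the medians are -0.34 (MUT 1), -0.21 (MUT 2), 0.04 (WT 1) and -0.04 (WT 2), while collagen IV and the row of all tested genes lie close to 0 in each library.

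CPM also depends on transcript length, so the order of the genes was taken from CPM per kb of the longest annotated transcript. In WT the order was led by Col16a1 at 52.8 and 56.7 CPM per kb and Col22a1 at 43.4 and 39.6, which did not overlap. Col2a1 (16.5 and 16.0) and Col20a1 (15.7 in both) followed. Col3a1 (10.3 and 8.97), Col1a2 (10.1 and 9.08), Col9a3 (8.76 and 10.4) and Lamb2 (8.80 and 8.47) came next, and their ranges over the 2 libraries overlapped, except that Lamb2 lay below Col3a1 and Col1a2. Both fibril-associated collagens at the head of the order lay above every other member in both WT libraries. Of the laminins, Lamb2 and Lamc3 (6.56 and 6.30) were highest, ahead of Lamb1 (3.59 and 3.66), Lama2 (3.18 and 3.32) and Lama1 (2.655 and 2.651). Lamb3 (2.99 and 2.12) and Lamc1 (2.25 and 2.48) came next and overlapped.

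Chains that assemble together were set against each other within each library, as log2 ratios of CPM per kb. The ratio of Col4a1 to Col4a2 was 0.04, 0.05, 0.05 and -0.08 in MUT 1, MUT 2, WT 1 and WT 2, so these genes were at near-equal levels in every library. Col1a1 was below Col1a2 in every library, at -1.29, -1.32, -1.14 and -1.31. For neither pair did the genotypes separate. Col6a1 to Col6a2 was 1.35 and 1.22 in MUT and 0.88 and 1.02 in WT, without overlap. Lamb2 to Lamc1 was 1.48 and 1.28 in MUT and 1.97 and 1.77 in WT, and Lamb1 to Lamc1 was 0.47 and 0.21 in MUT and 0.68 and 0.56 in WT, both without overlap. Nid1 to Nid2 was 1.57 in MUT 1 and 0.95 to 0.98 in the other libraries. Both laminin pairs share Lamc1, which lay higher in MUT, so they are not separate results. Among single genes, 22.6% of all tested had both MUT libraries below both WT libraries and 23% above. These ratios are descriptions, with no test.

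**Figure D4:**
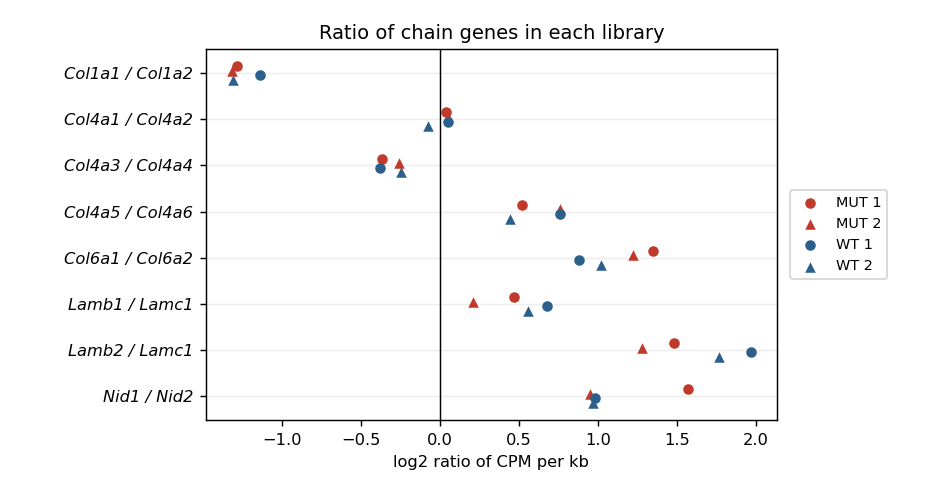
Log2 ratio of CPM per kb for 8 pairs of genes whose chains assemble or bind together, with 1 point per library. Points of the genotypes are apart for Col6a1 to Col6a2 (1.22 or more in MUT, 1.02 or less in WT). They are also apart for both laminin pairs, which share Lamc1, and mixed for the collagen I and collagen IV pairs.

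GC content moved with the differences and is given beside them. Across genes, which are not independent replicates, Spearman's rho of the log2 difference with the GC content of the longest transcript was -0.46 over the 53 members, -0.38 over the 40 collagens and -0.21 over 14778 tested genes. All points share the 4 libraries. The members had a median GC content of 54.5%, against 49.6% over all tested genes, and the 1475 genes of the highest of 10 GC bins had a median log2 difference of -0.08. With the trends on GC content and transcript length taken out library by library, 36 of 40 collagens lay below 0 with a median of -0.16. All 11 fibrillar collagens were below 0 (median -0.22). The 6 collagen IV genes were all below 0 too, with a median of -0.04, where 3 were below 0 before the correction. Of the 19 genes of collagen IV, laminins and nidogens, 12 lay below 0 after it. The median GC content was 58% in fibrillar collagens and 52.5% in collagen IV. Col27a1 remained called (log2 difference -0.48, limma adjusted p = 0.032) and Col16a1 did not.

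**Figure D5:**
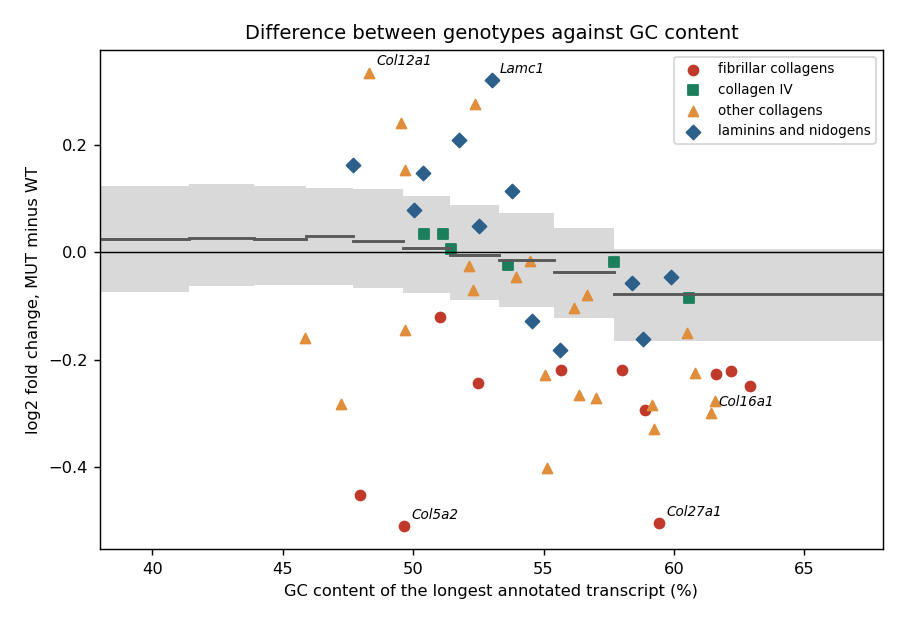
Log2 difference (MUT minus WT) of 52 of the 53 tested members against the GC content of their longest annotated transcript. The black steps and grey bands are the median and the quartiles of all tested genes in 10 bins of GC content. The steps go from 0.025 in the lowest bin to -0.078 in the highest, and all 11 fibrillar collagens lie below the step of their bin.

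Markers of the cell types that could carry these transcripts were listed for comparison. Of 11 tested peritubular myoid markers, 9 lay below 0 with a median log2 difference of -0.20. The number called was 0 in limma, edgeR and DESeq2, with 4 lower at an unadjusted p under 0.05. Their summed level was 514 and 530 CPM in MUT and 569 and 542 CPM in WT. The 2 with the smallest p were Des, the intermediate filament of muscle, and Tpm2, a tropomyosin. Des was at 3.69 and 3.71 CPM in MUT and 5.65 and 5.13 CPM in WT (limma adjusted p = 0.0813), and Tpm2 at 7.77, 7.35, 10.3 and 9.63 CPM. In 7 of the 11 markers both MUT libraries lay below both WT libraries, and in 1 both lay above. Over all tested genes these shares were 22.6% below and 23% above. Acta2, Tagln and Myl9 overlapped between genotypes (log2 differences -0.12, -0.04 and 0.02). Mylk lay higher in both MUT libraries (0.08). No myoid marker was at 0. The part of these cells in the collagen differences was not tested. Fibroblast markers (8 tested, 5 above 0, median 0.03) summed to 193 and 201 CPM in MUT and 192 and 195 CPM in WT, with Tcf21 at 2.65, 2.88, 4.75 and 3.30 CPM and Pdgfra at 20.1, 20.7, 16.7 and 17.6 CPM. Endothelial markers (12 tested, 7 below 0, median -0.07, led by Tie1 and Eng) summed to 83.95 and 85.88 CPM in MUT and 91.43 and 89.39 CPM in WT. Sertoli cell markers, of the cells that rest on the tubule's basement membrane, lay above 0 in 12 of 14 (median 0.11, led by Ctsl and Cldn11) and summed to 1399 and 1412 CPM in MUT and 1346 and 1278 CPM in WT. These 3 lists had 0 genes called in limma, edgeR or DESeq2. At an unadjusted p under 0.05, Sertoli cells had 4 higher, fibroblasts 1 higher and 1 lower, and endothelium 1 lower. The shares over all tested genes at this cutoff were 7.74% higher and 6.98% lower in limma. Ctsl passed the test without WT 1 (limma adjusted p = 0.0458).

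Leydig cell markers had 2 of 9 genes called higher (median 0.28), beside 0.482% of all tested genes called higher. These were Prlr, the prolactin receptor, with a log2 difference of 0.53, and the steroid enzyme gene Cyp17a1, with 0.28. The call of Cyp17a1 was lost without MUT 1, MUT 2 or WT 2, among others. The list summed to 1204 and 1244 CPM in MUT and 1046 and 1029 CPM in WT. Germ cell markers had 1 of 15 called, the receptor gene Kit, which rose by a log2 difference of 0.46, with a list median of -0.06 and Zbtb16 next by p. Kit was called in 11 of 17 alternatives. Its call was lost without MUT 2, without WT 1 and with the GC and length correction, among others. The germ cell markers summed to 14130 and 13410 CPM in MUT and 15050 and 13740 CPM in WT. Macrophage markers (10 tested, led by Mrc1 and Cx3cr1) had a median of 0.05. Markers of the capsule's mesothelium (3 tested: Lrrn4, Msln and Upk3b) had a median of -0.08 and those of fat (3 tested) one of 0.09. Among the latter, Cfd was at 0, 1.075, 2.002 and 0.4423 CPM across MUT 1, MUT 2, WT 1 and WT 2 (log2 difference -0.79, limma adjusted p = 0.376) and Adipoq at 10.97 CPM in both MUT libraries and at 10.40 and 8.786 CPM in WT. Cfd passed the test without MUT 2 (limma adjusted p = 5.94e-06), with MUT 1 alone in its group, where it is listed at 0. Of 6 epididymis markers, only Cst8 was tested (log2 difference -0.06). The last 4 lists had 0 genes called in limma, edgeR or DESeq2. At an unadjusted p under 0.05 in limma, macrophages had 2 higher and mesothelium 1 higher, against 7.74% of all tested genes. Lrrc8a itself was at 13.5 and 15.9 CPM in MUT and 18.2 and 17.2 CPM in WT (log2 difference -0.26, limma adjusted p = 0.218). With the kind of mutation not given, its level does not check the labels. The libraries held 40426400 to 68192776 reads in genes, and the members 64210 to 118350 of them.

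Genes that act on collagens and laminins were counted from lists of related genes. Of 31 tested enzymes and chaperones of collagen processing, 17 lay above and 14 below 0, with a median of 0.02. The number called was 0 in limma, edgeR and DESeq2, with 5 at an unadjusted p under 0.05 (4 higher, 1 lower). Over all tested genes, 7.74% were higher and 6.98% lower at that cutoff in limma. Plod2, which hydroxylates collagen lysines for crosslinking, was at 11.3 and 10.4 CPM in MUT and 7.65 and 8.89 CPM in WT (log2 difference 0.37, limma adjusted p = 0.117), and Pxdn, which crosslinks collagen IV, at 15.3, 15.7, 13.5 and 12.2 CPM (limma adjusted p = 0.205). Both lay higher in MUT without overlap. Of 38 tested other matrix proteins, 23 lay below 0 (median -0.06) and 1 fell, beside 0.267% of all tested genes that fell. This was Mfap5, a microfibril protein, at 3.71 and 4.15 CPM in MUT and 6.04 and 6.13 CPM in WT (log2 difference -0.57, SE 0.125, limma adjusted p = 0.0348). Mfap5 was called in 10 of 17 alternatives. It lost its call without MUT 1, without WT 1, without WT 2 and in DESeq2, among others. Fbln2, a fibulin, was at 1.19, 1.32, 2.31 and 2.21 CPM (limma adjusted p = 0.0624).

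Of 16 tested genes of the TGF-beta pathway, a known inducer of fibrillar collagens, 8 lay above and 8 below 0 (median -0.02). In limma 1 fell, beside 0.267% of all tested genes. Ltbp4, which holds latent TGF-beta in the matrix, was at 36.7 and 36.6 CPM in MUT and 47.9 and 46.4 CPM in WT (log2 difference -0.36, SE 0.076, limma adjusted p = 0.0311). It was called in 9 of 17 alternatives and lost its call without MUT 1, without MUT 2, without WT 1 and with the GC and length correction, among others. Skil, a repressor in this pathway, was at 15.3, 14.7, 12.5 and 11.9 CPM (limma adjusted p = 0.174). Matrix receptors had 19 of 27 above 0 (median 0.08) and 0 called in limma, edgeR and DESeq2. At an unadjusted p under 0.05 in limma, 2 were higher and 1 lower, against 7.74% and 6.98% of all tested genes. Among them were Bcam, a laminin receptor, at 5.52 and 5.89 CPM in MUT and 7.97 and 6.86 CPM in WT and Itga2, a collagen-binding integrin, at 2.40, 2.96, 1.97 and 1.95 CPM. Matrix remodelling genes had 14 of 20 above 0 (median 0.09) and 0 called by the same 3 tools, with 2 higher and 3 lower at an unadjusted p under 0.05. Among them the collagen-degrading Mmp2 was at 2.75 and 2.64 CPM in MUT and 5.28 and 3.28 CPM in WT (limma adjusted p = 0.134) and Ctsk at 1.64, 1.81, 3.43 and 2.15 CPM (limma adjusted p = 0.165). WT 1 was the highest library for both genes. Without WT 2, which leaves WT 1 against the MUT pair and its spread alone, both passed the test (limma adjusted p = 0.0179 and 0.0452).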

How the data were processed

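The values are polyadenylated RNA levels of whole testis, 2 MUT and 2 WT libraries. The authors deposited CPM (read counts scaled to library size) for 24420 gene symbols. The tools, per the submitters' processing notes, included edgeR 3.8.6, HTSeq 0.6.0 and TopHat2 2.0.10, on mm10, without roles or order, and per the labels' protocols the library kit keeps strand. Whether reads were counted by strand is not given. All CPM values (100%) lay within 0.001 of a whole number of reads, so reads were recovered: 48409785 and 40426400 in MUT 1 and MUT 2, 68192776 and 50162558 in WT 1 and WT 2. Intervals and floors of 3 reads cover counting error only.

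Symbols with at least 1 CPM in at least 2 libraries were tested as log2(CPM + 0.5) with limma 3.58.1 (R 4.3.3; eBayes with a mean-variance trend, two-sided, Benjamini-Hochberg over all 15364 tested genes), with no further scaling. A call is an adjusted p under 0.05. The alternatives, 15 planned and 2 added after the data were seen (a GC and length correction and a crossed replicate block), include count tests on the recovered reads: edgeR 4.0.16 called 116 genes and DESeq2 1.42.0 called 157, both with the same 2 members. The pipeline was tested on simulated data.

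The members and lists were chosen with earlier results of these data known. Named are the called members, the 3 tested members of each class with the highest CPM (not scaled to length), the 10 members with the smallest p, the called genes and the 2 smallest p of each related or marker list, and Lrrc8a. Others named (Lama3, Col1a2, Col11a1, Col6a6, Upk3b, Tcfl5, Acta2, Tagln, Myl9, Mylk and the untested collagens) were chosen after their values were seen. Positions, lengths and GC content come from GENCODE vM21 on GRCm38 (96.19% of tested symbols) and start windows from RefSeq on GRCm38.p6. Col21a1, 7 older list symbols and Muc16 had no match and were not used here. The values of 1 member are not reported here, and it is left out of the plots of single genes.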

Additional observations from a re-analysis of the deposited data

How the results depend on the processing

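The 115 calls over all genes became 11 with no filter on low values, 53 with quantile normalization, 7 with no variance trend and 116 to 280 when 1 library was left out (highest without WT 1). The 2 member calls became 0 with no filter and with no variance trend, 1 with quantile normalization, 1 with the GC and length correction and 2 to 4 with 1 library left out. With 4, without WT 1, they were Col15a1, Col16a1, Col27a1 and Col9a3, and without WT 2 the 2 were Col1a1 and Col6a2. With the replicate block, 88 genes and 1 member (Col27a1) were called. The differences between replicates 1 and 2 of the genotypes correlated at -0.134 across 15364 genes, so the numbers do not pair the libraries. The crossed replicate block pairs MUT 1 with WT 2 and MUT 2 with WT 1. No label gives this pairing, and it was added after the data were seen, along the sign of that correlation. It called 235 genes and 4 members, and a rise in calls is built into such a choice, so these calls add no support. The median log2 difference of the members, -0.12, was -0.094 with a minimum mean of 2 CPM, -0.139 with quantile normalization, -0.099 with scaling without the 100 most abundant genes and -0.135 to -0.075 with 1 library left out. That of the collagens, -0.189, was -0.163 with a pseudocount of 1 or with the GC and length correction, -0.218 with no filter, -0.147 with a minimum mean of 2 CPM, -0.224 in edgeR, -0.223 in DESeq2 and -0.194 to -0.148 with 1 library left out. That of the laminins, 0.05, was 0.03 with quantile normalization, 0.072 with scaling without the 100 most abundant genes, 0.025 with the GC and length correction and -0.029 to 0.058 with 1 library left out, below 0 without MUT 1. With 1 library left out, the lone library of a genotype is assumed to vary like the other pair. Of all calls, 64.3% were higher in MUT (74 higher, 41 lower). Scaling without the 100 most abundant genes gave 113 and 37 (75.3%) and moved the median of all genes from -0.0016 to 0.0199, and DESeq2 gave 86 and 71 (54.8%). Leaving out WT 1 turned the balance, with 115 and 165 (41.1%). The cause was not tested.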
